A study of Mus musculus with 30 samples.

Results

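Alphaproteobacteria and Betaproteobacteria are 2 classes of the phylum Proteobacteria, and in the feces of these mice they made up a small and mixed part of the community. Their members were taken as all amplicon sequence variants (ASVs, the distinct 16S rRNA gene sequences of the count table) assigned to either class with at least 1 count in the 30 mice. This gave 453 of 12980 ASVs, of which 161 were Alphaproteobacteria and 292 were Betaproteobacteria. Together they held 16295 counts, or 0.624% of all counts.

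Feces were sequenced for the 16S rRNA gene from female mice labelled as C57BL/6 (C57BL/6J in the study's methods) and as 6 weeks of age, with 6 mice in each of 5 groups. Control mice ate a normal diet and model mice ate a high-fructose diet (HFru), and both received saline by gavage. The remaining groups ate HFru and were gavaged with a compound. The dose was 50 mg/kg for salidroside, 23 mg/kg for tyrosol and 26 mg/kg for hydroxytyrosol. Salidroside is the glucoside of tyrosol, and hydroxytyrosol carries an additional hydroxyl group on the ring. The latter doses were set by the study to match salidroside in moles, so the groups differed in mg/kg. Per the study's methods, that age was the age at purchase and the stool was taken when treatment ended, so the mice were older when sampled. A mouse is called here by its group and number in the sample titles.

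Gut bacteria in these classes are few. Sutterella, a genus of Betaproteobacteria in the family Alcaligenaceae, lives in the intestine of mammals with little or no oxygen and belongs to the normal gut flora. Most of the other families are known mainly from water, soil, plant roots and laboratory surfaces: Caulobacteraceae (Brevundimonas, Caulobacter), Brucellaceae (Ochrobactrum), Comamonadaceae (Acidovorax, Comamonas, Delftia), Sphingomonadaceae and Rhizobiaceae. Several of those genera are also known as traces in DNA extraction and PCR reagents. Rickettsiales is the order to which mitochondrial 16S sequences are close, and RF32 is an order known only from sequences, many of them from the gut.

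Depth in the filtered table ran from 41862 to 106609 counts in a mouse. Every control mouse (41862 to 83876 counts) was sequenced to a lower depth than every model mouse (87731 to 104427 counts). Model mouse 2 stood apart from all other mice in these classes: 9449 of its 92382 counts, or 10.2%, were Alpha- or Betaproteobacteria, and it held 112 of the 453 ASVs against 8 to 52 in each of the other 29 mice. It also held 21 phyla, against 8 to 17 in the others. The main results that rest on the model group are therefore given with and without this mouse. All shares are relative to the total of a mouse, so a lower share of a taxon and a larger amount of other bacteria cannot be told apart. Acinetobacter, a genus of Gammaproteobacteria, took between 0.0312% and 84.2% of the counts of a mouse, and its mean share was 20.5% in control and 53.5% in model mice.

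Most members were rare and private to a mouse. Of the 453 ASVs, 314 (69.3%) were found in 1 mouse only, against 71.1% of all 12980 ASVs. Only 3 member ASVs reached 15 or more mice. They fell into 20 orders, 36 families and 90 genera, many of them without a formal name. Of the 24 environmental families listed here 21 had counts, as had 20 of the 31 genera listed as known from reagents and water. The gut-type list held Sutterella and RF32, and both were found. Of the organelle-type list, Rickettsiales was found with 356 counts in 8 mice, while no ASV carried the family name mitochondria.

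Sutterella was present in most control mice and nearly absent from model mice. The genus held 605 counts in 14 ASVs over 18 mice. Control mice 1 to 6 had 0, 61, 168, 70, 86 and 18 counts. Model mice had 0 counts except for model mouse 3, which had 8. Thus 5 of 6 control mice, but 1 of 6 model mice, held the genus. For the control mouse without Sutterella the 95% Wilson interval of the share reached 0.00525%, and for the model mice at 0 it reached between 0.00368% and 0.00438%. Such intervals cover counting error only.

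Control mice had a mean Sutterella share of 0.0983% ± 0.0790 (SD, n = 6), against 0.00132% ± 0.00322 (SD, n = 6) for model mice. The difference of -0.0970 percentage points had p = 0.0152 in a two-sided exact permutation test over the 924 splits of the 12 mice, whose smallest possible p is 0.0022. When each model mouse was set against each control mouse, the share was higher in the model mouse in 1 of 36 pairs. Adjusted over the 7 comparisons of the genus, p was 0.0960 in these exact tests, so the difference did not pass that correction. Without model mouse 2 the difference was -0.0967 percentage points with an exact p of 0.0281. Leaving out any other mouse kept the exact p between 0.0022 and 0.0281.

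Counts were compared over all genera with edgeR's quasi-likelihood test. Sutterella was lower in model than in control mice with a log2 fold change of -5.41 (SE 1.90, adjusted p = 0.0368). The genus reached the minimum of 10 counts in 4 mice, which was required for a test, only through control mice, the group in which it was high. When all genera were fitted with no such minimum, it did not pass (-5.20, adjusted p = 0.0747 in edgeR). It was the only one of 6 member genera tested that passed, in a comparison in which 17.5% of all 97 genera tested did. The call was not firm: without model mouse 2 the log2 fold change was -5.00 with an adjusted p of 0.0623 in edgeR, and the call was also lost (adjusted p from 0.0553 to 0.0767) when control mouse 2, 3, 4 or 5 or model mouse 1, 4, 5 or 6 was left out. Control mice 1 to 6 had 34629, 1134, 38, 216, 13611 and 46329 counts of Acinetobacter. Model mice 1 to 6 had 37282, 47962, 85270, 74428, 69042 and 167. Whether Sutterella varied with Acinetobacter over the mice was not tested. With Acinetobacter removed from every total, the exact p of the Sutterella share for model against control was 0.0281.

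**Figure D1:**
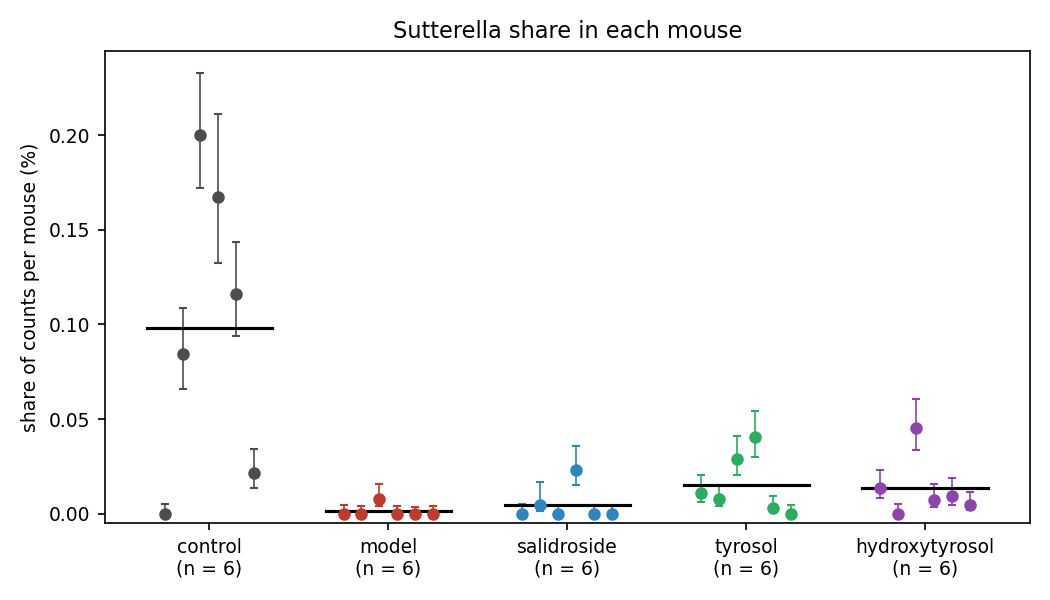
Sutterella as a percentage of all counts in each of the 30 mice, by group. Points are mice in the order of their numbers with 95% Wilson intervals, and horizontal lines are group means. Control mice reach 0.200%, while 5 of 6 model mice and 4 of 6 salidroside mice lie at 0.

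The treated groups held few Sutterella counts, and with salidroside most mice held none. Tyrosol mice 1 to 6 had 10, 8, 31, 43, 3 and 0 Sutterella counts, and hydroxytyrosol mice had 14, 0, 45, 6, 8 and 4. Salidroside mice had 0, 2, 0, 20, 0 and 0. The genus was therefore detected in 5 of 6 mice given tyrosol, in 5 of 6 given hydroxytyrosol and in 2 of 6 given salidroside. All these values were below the 4 highest control mice.

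The mean share was 0.0152% ± 0.0160 (SD, n = 6) with tyrosol and 0.0134% ± 0.0163 (SD, n = 6) with hydroxytyrosol. Each exceeded the model mean with an exact permutation p of 0.0411, and each was the higher in 28 of 36 pairs with model mice. Adjusted over the 7 comparisons, both exact p-values became 0.0960 and did not pass. Without model mouse 2 the exact p was 0.0866 for tyrosol and 0.0887 for hydroxytyrosol, and with Acinetobacter removed from the totals it was 0.195 and 0.481. The unadjusted exact p was also above 0.05, from 0.0541 to 0.0887, when model mouse 1, 4, 5 or 6 was left out in either comparison, and without tyrosol mouse 3 or 4 or hydroxytyrosol mouse 1, 3 or 5. With salidroside the mean share was 0.00464% ± 0.00933 (SD, n = 6), and the exact p against the model mice was 0.727. The sign of that difference turned without salidroside mouse 4 (-0.000406 percentage points) and with Acinetobacter removed from the totals (-0.00255 percentage points). In none of these 3 comparisons did Sutterella reach the minimum of 10 counts in 4 mice, so edgeR gave no value for it. The treated groups were not tested against control mice.

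Between the compounds, no difference in Sutterella passed a test. The exact p was 0.206 for salidroside against tyrosol, 0.879 for hydroxytyrosol against tyrosol and 0.359 for salidroside against hydroxytyrosol. In edgeR the log2 fold change of hydroxytyrosol over tyrosol was -0.29, with a 95% interval from -2.76 to 2.19. For salidroside over tyrosol it was -2.05, with an interval from -5.25 to 1.15. Both intervals are wide.

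Some of the ASVs behind these counts were shared between groups and others were seen in single mice, and this was not tested. ASV_67260 held 361 of the 605 Sutterella counts and occurred in 12 mice. It had 60, 98, 45, 58 and 5 counts in control mice 2 to 6, 31 and 43 counts in tyrosol mice 3 and 4, and 0 in every model mouse. ASV_13891 (80 counts) was found in 3 mice, all of them controls. The 8 counts of model mouse 3 belonged to ASV_6271, which also had 15 and 13 counts in control mice 3 and 5 and 8 in tyrosol mouse 2. In the hydroxytyrosol group the largest value, in mouse 3, came mainly from ASV_24125 (24 counts), which was otherwise seen only in hydroxytyrosol mouse 5. In salidroside mouse 4, ASV_1411 supplied 17 of the 20 counts and occurred in no other mouse. None of the 14 ASVs carried a species name.

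RF32, the other gut-type taxon, was too rare to compare. It had 75 counts in 10 mice, with 23 in tyrosol mouse 4, 15 in salidroside mouse 4 and 12 in control mouse 3 as the highest values.

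The make-up of the Betaproteobacteria varied between mice. Control mice had a total share of 0.189% ± 0.0668 (SD, n = 6), against 0.300% ± 0.261 (SD, n = 6) for model mice, or 0.199% ± 0.0945 (SD, n = 5) without model mouse 2. The exact permutation p for model against control was 0.416, and edgeR gave a log2 fold change of 1.46 (SE 1.01, adjusted p = 0.225), or 0.51 (adjusted p = 0.642) without model mouse 2. Summed over the control mice, Sutterella supplied 48.8% of 825 betaproteobacterial counts, and in control mouse 4 it supplied 87.5%. Summed over the model mice it supplied 0.467% of 1712 counts. The corresponding values were 3.21% with salidroside, 16.8% with tyrosol and 11.2% with hydroxytyrosol. Comamonadaceae supplied between 30% and 91.4% of the class in model mice, with a median of 85.2%, and between 5% and 84.2% in control mice, with a median of 39.5%, so the groups overlapped. These percentages of the class are descriptions and were not tested.

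**Figure D2:**
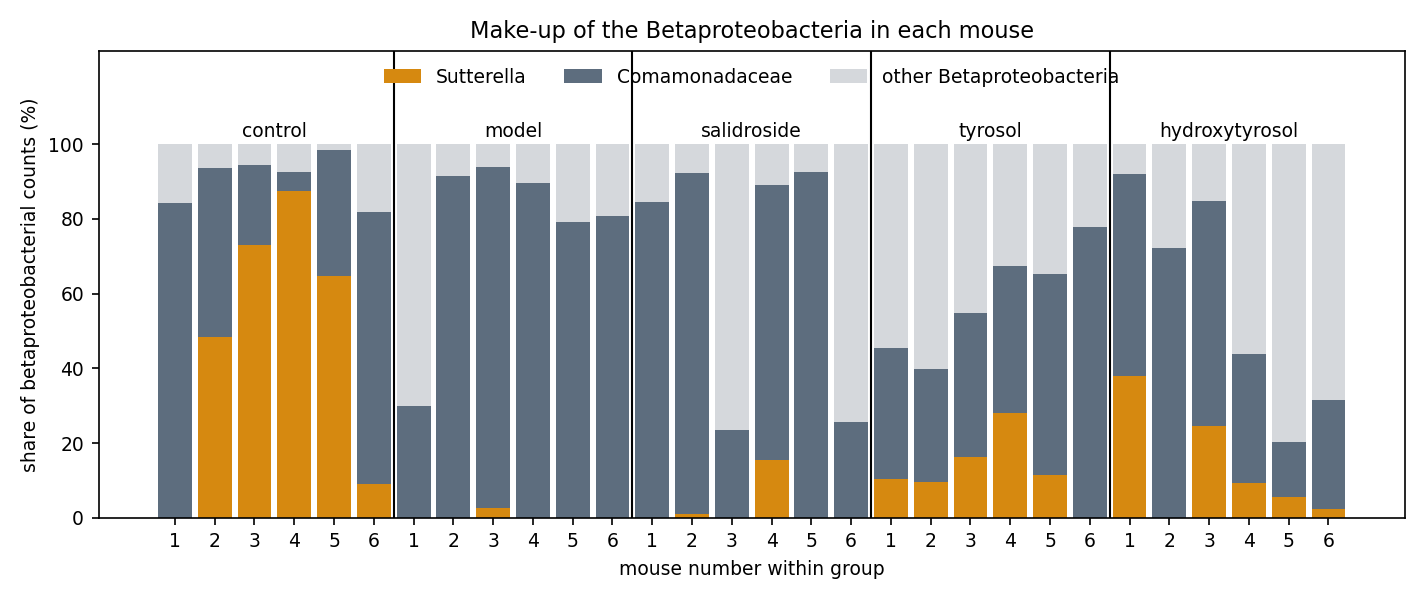
Percentage of each mouse's betaproteobacterial counts assigned to Sutterella, Comamonadaceae and other taxa, for the 30 mice by group and mouse number. Bars add to 100% and do not show the class total. Sutterella ranges from 0 to 87.5% in control mice and from 0 to 2.56% in model mice.

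In control mice, Betaproteobacteria other than Sutterella averaged 0.0909% ± 0.0655 (SD, n = 6). Those of model mice averaged 0.299% ± 0.261 (SD, n = 6), and 0.197% ± 0.0922 (SD, n = 5) without model mouse 2. The mean of these other Betaproteobacteria was 0.163% with salidroside, 0.0774% with tyrosol and 0.117% with hydroxytyrosol. For the whole class, tyrosol mice were lower than model mice (0.0926% against 0.300%) with an exact p of 0.0325. In edgeR this comparison did not pass (log2 fold change -2.03, adjusted p = 0.150). The p of the share was 0.227 after adjustment over the 7 comparisons and 0.0628 without model mouse 2, both from exact permutation tests. It was between 0.0628 and 0.0866 without tyrosol mouse 1, 2, 5 or 6 in the same exact test.

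Within Alcaligenaceae, most control mice held Sutterella and most model mice held Alcaligenes. Alcaligenes, a genus of soil and water, had 149, 0, 6, 9, 12 and 5 counts in model mice 1 to 6, and among the control mice it was seen only in mouse 6 with 8 counts. It was thus present in 5 of 6 model mice and 1 of 6 control mice. Both genera were found in control mouse 6, model mouse 3 and salidroside mouse 2. The same held for tyrosol mice 3 and 4 and hydroxytyrosol mice 3 and 4, with 24, 15, 16 and 22 counts of Alcaligenes. The family as a whole did not pass in edgeR for model against control (log2 fold change -1.01, SE 1.5, adjusted p = 0.621), or -0.53 (adjusted p = 0.822) without model mouse 2.

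Comamonadaceae was the largest family of Betaproteobacteria, with 2761 counts in 186 ASVs, and occurred in all 30 mice. Model mice 1 to 6 had 76, 679, 285, 96, 145 and 92 counts and control mice had 48, 57, 49, 4, 45 and 145. Tyrosol mice had 34, 25, 73, 60, 14 and 14. The share lay between 0.0866% and 0.735% in model mice and between 0.0145% and 0.0685% in tyrosol mice, so these groups did not overlap, with or without model mouse 2. It was the only one of 8 member families tested whose shares did not overlap in this comparison, and 6.67% of all 60 families tested did not. In edgeR it did not pass after adjustment: the log2 fold change of tyrosol over model was -3.18 (SE 1.05, adjusted p = 0.0924). For hydroxytyrosol over model it was -2.76 (SE 0.97, adjusted p = 0.0582), and for salidroside over model -1.29 (adjusted p = 0.534), both in edgeR. Model and control mice overlapped in this family, and edgeR gave 1.7 (SE 1.35, adjusted p = 0.389). The values of Comamonadaceae in edgeR without model mouse 2 were -2.39 for tyrosol (adjusted p = 0.196), -2.44 for hydroxytyrosol (adjusted p = 0.105) and -0.70 for salidroside (adjusted p = 0.692), each over model, and 1.93 for model over control (adjusted p = 0.312).

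The genera of Comamonadaceae were spread over different mice. Comamonas had 57, 0, 121, 30, 14 and 0 counts in model mice, and 41, 22 and 80 in control mice 1, 2 and 6 with 0 in the others. With tyrosol it had 9 and 5 counts in mice 3 and 4 only, and with hydroxytyrosol 11 counts in mouse 2 only. Acidovorax had 0, 107, 59, 20, 41 and 5 counts in model mice and up to 17 in control mice. Delftia had 311 counts in model mouse 2, 43 in model mouse 6, and at most 4 in any other mouse. ASVs without a genus name (136 of the 186) held 1079 counts, of which 135 ASVs with 1075 counts formed the unclassified Comamonadaceae. Comamonas, Acidovorax and the unclassified Comamonadaceae were tested in edgeR in 4, 5 and 7 comparisons and passed in none, and the lowest adjusted p was 0.176 (Comamonas, hydroxytyrosol over model), or 0.125 without model mouse 2. Delftia was too rare to be tested.

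Alphaproteobacteria were dominated by model mouse 2. Control mice 1 to 6 had 11, 32, 189, 40, 49 and 23 counts of the class, and model mice had 350, 8706, 60, 24, 127 and 307. Control mice had a mean share of 0.0790% ± 0.0772 (SD, n = 6). That of model mice was 1.72% ± 3.78 (SD, n = 6), and 0.182% ± 0.163 (SD, n = 5) without model mouse 2, whose own share was 9.42%. With or without that mouse the groups overlapped.

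The class passed in edgeR in each comparison with model mice. The log2 fold change of model over control was 4.70 (SE 1.33, adjusted p = 0.0193), where 23.8% of the 21 classes tested passed. It was -4.24 for salidroside (adjusted p = 0.0158), -4.97 for tyrosol (adjusted p = 0.0248) and -4.23 for hydroxytyrosol (adjusted p = 0.0466), each over model in edgeR, where 21.1%, 19.0% and 25.0% of the classes tested passed. Without model mouse 2 the same fits gave 1.2 (adjusted p = 0.327), -1.43 (adjusted p = 0.359), -1.06 (adjusted p = 0.603) and -0.04 (adjusted p = 0.964). All 4 calls were thus lost without this mouse. For model over control the call was also lost without control mouse 3 or 4 or model mouse 1 (3.41 to 4.13, adjusted p from 0.0520 to 0.0817 in edgeR), for tyrosol without tyrosol mouse 3 or 4 (adjusted p from 0.0508 to 0.0516), and for hydroxytyrosol without hydroxytyrosol mouse 1, 2, 3, 4 or 5 (adjusted p from 0.0646 to 0.0896). The share of the class did not pass the exact permutation test for model against control (p = 0.0931) or for salidroside, tyrosol or hydroxytyrosol against model (p = 0.136, 0.121 and 0.452). With Acinetobacter removed from every total, the differences were 3.48, -3.44, -3.37 and -3.38 percentage points in the same order. The unadjusted exact p was then 0.0043 for model against control, 0.0152 for salidroside, 0.0758 for tyrosol and 0.0909 for hydroxytyrosol. These values include model mouse 2, which held 8706 of the 9574 counts of the class in the model group. No value without that mouse is given for these totals.

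**Figure D3:**
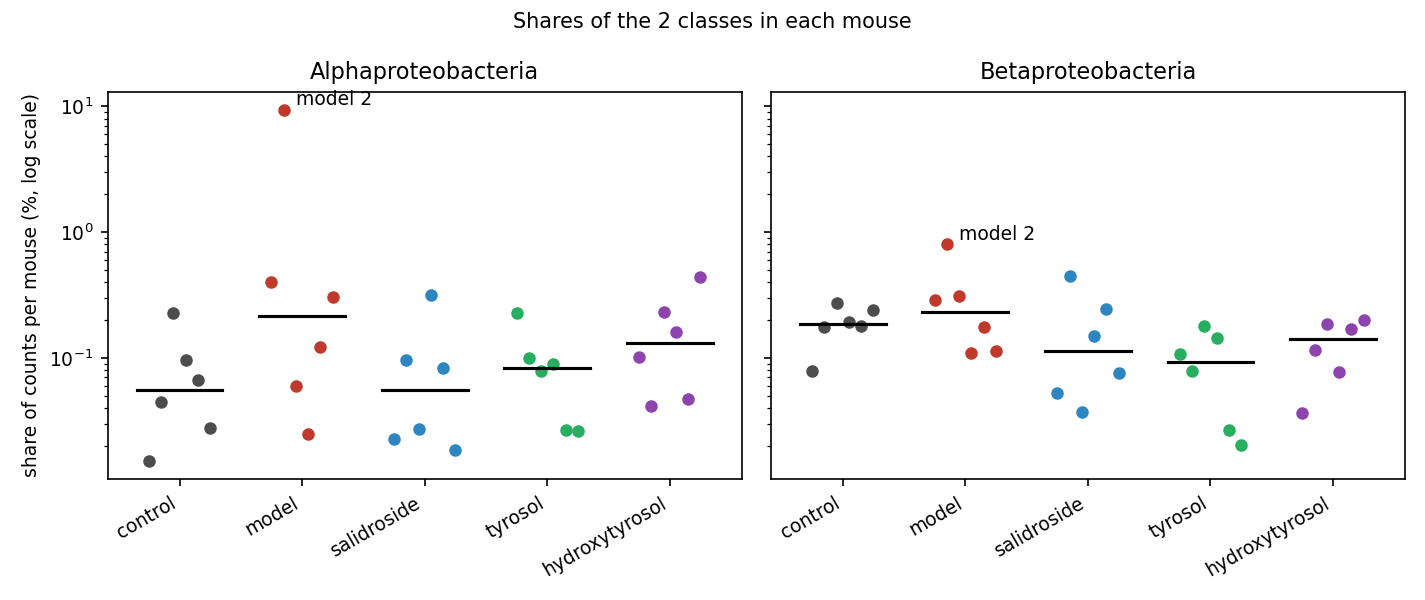
Share of Alphaproteobacteria (left) and Betaproteobacteria (right) in each of the 30 mice by group, on a shared log scale. Points are mice and lines are group medians. Model mouse 2 is labelled, at 9.42% and 0.804%, and apart from it the ranges of the groups overlap.

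Model mouse 2 held a broad set of these families at once. It had 2984 counts of Brevundimonas, 2932 of Ochrobactrum, 1133 of Xanthobacter, 361 of Sphingomonas, 340 of Agrobacterium and 311 of Delftia. It had 50 member genera, against 7 to 31 in the other mice, and 15 environmental families, a number that tyrosol mouse 1 also reached. Sutterella and RF32 were at 0. Its Acinetobacter share of 51.9% lay near the model mean. The labels give no cage, extraction batch or sequencing run, and no blank extraction was analysed here, so whether these counts came from the gut of the mouse was not tested.

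Caulobacteraceae, a family of freshwater bacteria, was found in every model mouse and in 2 of 6 control mice. Model mice 1 to 6 had 79, 3353, 20, 6, 5 and 18 counts of the family. Among control mice only mice 3 and 5 held it, with 4 and 3 counts. The lowest model share was 0.00479% and the highest control share 0.00477%, so the groups did not overlap, although the gap is less than the counting error. It was the only one of 6 member families tested without overlap in this comparison, against 6.9% of all 58 families tested.

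In edgeR the log2 fold change of Caulobacteraceae for model over control was 9.11 (SE 2.0, adjusted p = 0.0010). The family reached the minimum of 10 counts in 4 mice only through model mice, the group in which it was high. With no such minimum the log2 fold change was 8.50 (adjusted p = 0.00043 in edgeR). Without model mouse 2 it fell under that minimum and was not tested. When it was kept in the fit all the same, a choice made after the data were seen, the log2 fold change was 4.79 (SE 1.64), a description with no test, since it was kept there through the mouse left out. The family was lower with each compound than in model mice, with log2 fold changes of -6.02 for salidroside, -6.19 for tyrosol and -5.54 for hydroxytyrosol (adjusted p = 0.0020, 0.0390 and 0.0283 in edgeR). These became -1.15, -1.97 and -1.32 without model mouse 2 and did not pass (adjusted p = 0.660, 0.583 and 0.484 in edgeR). With tyrosol the call was also lost without tyrosol mouse 1, 3 or 6 (-6.34 to -6.01, adjusted p from 0.0644 to 0.120 in edgeR). With hydroxytyrosol it was also lost without model mouse 4 or hydroxytyrosol mouse 1, 3, 4, 5 or 6 (-6.28 to -5.09, adjusted p from 0.0524 to 0.0671 in edgeR). The treated mice held between 0 and 39 counts, a range that overlapped that of the other model mice.

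Brevundimonas, the main genus of Caulobacteraceae, had 73, 2984, 18, 6, 0 and 7 counts in model mice, 3 counts in control mouse 5, and at most 16 in any treated mouse. It was tested in edgeR only for tyrosol against model, where it did not pass (log2 fold change -7.36, SE 2.17, adjusted p = 0.0942), and without model mouse 2 it was too rare to be tested. Its largest ASV, ASV_89351, was assigned to Brevundimonas intermedia and had 2165 counts in model mouse 2 and 51 in model mouse 1. ASV_82000, assigned to Brevundimonas diminuta, held 468 counts in 7 mice.

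Brucellaceae was almost entirely Ochrobactrum, a genus of soil bacteria, which was the only named genus of these classes found in all 30 mice. ASV_64654 supplied 4189 of its 4208 counts and occurred in 29 mice. Control mice had 9, 20, 46, 8, 29 and 15 Ochrobactrum counts and model mice had 31, 2932, 23, 2, 68 and 151. Hydroxytyrosol mice had 27, 22, 122, 66, 33 and 213, and all other treated mice between 2 and 80. Brucellaceae rose in model over control mice (log2 fold change 4.61, SE 1.55, adjusted p = 0.0287) and was lower with salidroside than in model mice (-4.58, SE 1.39, adjusted p = 0.0119) in edgeR. Ochrobactrum itself did not pass in edgeR in either comparison (3.81, adjusted p = 0.0925, and -4.06, adjusted p = 0.308). For the family, without model mouse 2 the values were 1.98 (adjusted p = 0.319) and -1.52 (adjusted p = 0.588). The first call was also lost without control mouse 1, 2, 4 or 5 (4.44 to 4.55, adjusted p from 0.0518 to 0.0681 in edgeR), and the second without model mouse 6 (-4.07, adjusted p = 0.0742 in edgeR).

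Across families, 3 of 6 member families tested passed for model against control in edgeR, all higher in model mice, where 17.2% of all families tested passed and 8.62% were higher. This count includes Caulobacteraceae, which could be tested only through the model mice, so nothing is read from it or from the median below. The remaining one was Sphingomonadaceae, with a log2 fold change of 5.90 (SE 1.96, adjusted p = 0.0287). It had 379 counts in model mouse 2, 3, 11 and 24 in model mice 4, 5 and 6, and 12 in a single control mouse. Without model mouse 2 it fell under the count minimum, and it did not pass without control mouse 1, 2 or 4 (5.66 to 5.68, adjusted p from 0.0504 to 0.0629 in edgeR). For salidroside, tyrosol and hydroxytyrosol against model, 2 of 6, 1 of 8 and 1 of 9 member families passed, all lower, where 13.2%, 3.33% and 11.9% of all families tested passed and 11.3%, 1.67% and 6.78% were lower. Over the member families that reached the count minimum, the median log2 fold change was 3.54 for model over control, against 0.60 over all families tested. Against model it was -2.86, -3.49 and -2.73 for salidroside, tyrosol and hydroxytyrosol, against -0.60, -1.07 and -1.0 over all families. When model mouse 2 was left out, 0 of the 4, 5, 6 and 7 member families tested in these 4 comparisons passed. At an unadjusted p under 0.05 in edgeR they numbered 0, 0, 1 and 1. Of all families tested, 18 of 54, 9 of 50, 10 of 56 and 10 of 53 were under it. The share of all families that passed after adjustment is not given, so nothing is read from the 0. The median of the member families was then 1.56 for model over control, against 0.14 over all families. It was -1.15, -0.87 and -0.60 for salidroside, tyrosol and hydroxytyrosol over model, against -0.74, -0.47 and -0.60 over all families.

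**Figure D4:**
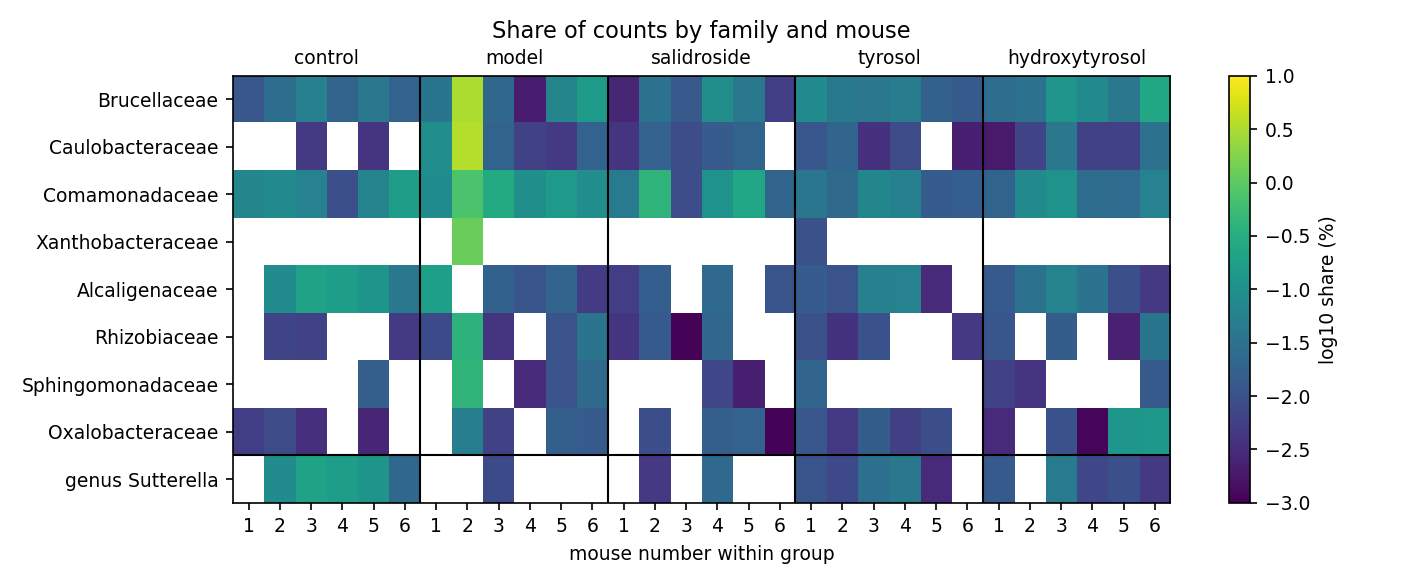
Share of counts on a log10 scale for the 8 most abundant families of both classes and for the genus Sutterella (bottom row), in each of the 30 mice by group. White cells are 0 counts. Model mouse 2 is the brightest column for Brucellaceae, Caulobacteraceae and Xanthobacteraceae, and is empty for Sutterella.

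At genus level, the compounds differed from model mice in 0 of 5, 0 of 7 and 0 of 7 member genera tested in edgeR for salidroside, tyrosol and hydroxytyrosol, where 4.12%, 1.94% and 4.95% of all genera passed. At an unadjusted p under 0.05 the numbers of member genera were 1, 4 and 1, where 12.4%, 21.4% and 17.8% of all genera tested were under it. Leaving out model mouse 2, they were 0 of 4, 2 of 5 and 1 of 6, where 6.67%, 20% and 16.8% of all genera tested were under it, and none passed after adjustment. In the comparison of tyrosol with model, Comamonas and Acidovorax reached the count minimum only through model mice, the group in which they were high. Nothing is therefore read from these numbers. DESeq2 called 0 member genera in these 3 comparisons, but its share over all genera is not given, so nothing is read from this count.

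**Figure D5:**
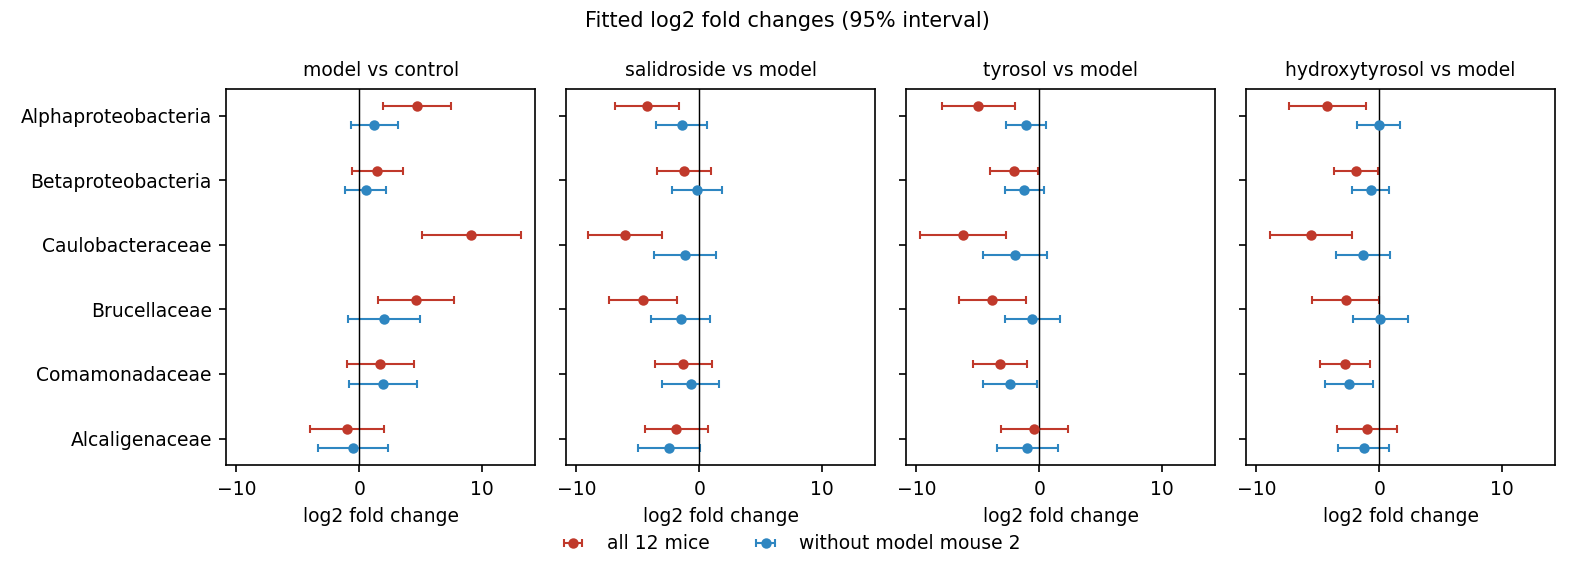
Log2 fold changes from edgeR with 95% intervals for both classes and 4 families in the 4 comparisons with model mice. Red points use all 12 mice and blue points leave out model mouse 2; Caulobacteraceae has no blue point for model vs control because it fell under the count minimum there. The alphaproteobacterial values move from 4.70 to 1.2 and from -4.23 to -0.04 at the extremes.

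Between the compounds, no tested class, family or genus of these bacteria passed in edgeR. For classes, 0.0%, 5.56% and 11.8% of those tested passed for salidroside against tyrosol, hydroxytyrosol against tyrosol and salidroside against hydroxytyrosol. The numbers of member families tested were 6 for salidroside against tyrosol, 8 for hydroxytyrosol against tyrosol and 7 for salidroside against hydroxytyrosol, where 2.04%, 1.82% and 0.0% of all families passed. For genera 4, 6 and 4 were tested, where 0.0%, 1.04% and 0.0% of all genera passed. At an unadjusted p under 0.05 there was 1 such family in the first comparison and 0 in the others, where 16.3%, 18.2% and 14.0% of all families were under it. There was no such genus, where 9.78%, 20.8% and 11.2% of all genera were. The family was Comamonadaceae, higher with salidroside than with tyrosol (log2 fold change 2.06, SE 0.89, 95% interval 0.22 to 3.91, adjusted p = 0.210 in edgeR). For Alphaproteobacteria the log2 fold change of hydroxytyrosol over tyrosol was 1.38 with a 95% interval from -0.20 to 2.95. That of salidroside over tyrosol was 0.10, from -1.31 to 1.51.

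The summed environmental families were higher in most model mice than in control mice. This sum is a description, since its families were chosen with these data known. Control mice lay between 0.0621% and 0.214% with a median of 0.127%. Model mice other than mouse 2 lay between 0.133% and 0.440% with a median of 0.349%. The medians were 0.167% with salidroside, 0.147% with tyrosol and 0.182% with hydroxytyrosol. The summed gut-type list moved the other way, from a mean of 0.101% in control to 0.00265% in model mice. The reagent and water genera alone had medians of 0.0740% in control mice, 0.186% in the 5 other model mice, 0.0872% with salidroside, 0.0689% with tyrosol and 0.129% with hydroxytyrosol.

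Some members were confined to few mice. Herbaspirillum ASV_9397, from a genus of plant-associated Oxalobacteraceae, had 104 and 109 counts in hydroxytyrosol mice 5 and 6 and 0 in all other mice. Xanthobacter occurred in model mouse 2 (1133 counts) and tyrosol mouse 1 (9 counts) only. The Rickettsiales ASV_78528 held 330 of 356 counts of the order. Rickettsiales had 204 counts in model mouse 1 and 101 in control mouse 3, and the other 6 mice with the order had between 2 and 19. In salidroside mouse 4, 138 counts belonged to Alphaproteobacteria on neither the environmental nor the gut-type list.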

How the data were processed

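Stool DNA of 30 mice was amplified for the 16S rRNA gene and sequenced. The counts used here are raw counts per ASV that the authors deposited after trimming (cutadapt, per the labels), merging, quality filtering, chimera removal, taxonomic assignment and removal of singletons. The taxonomy version is not given in the sources used here. The deposited unfiltered and rarefied tables served as alternatives, and the remaining deposited files were not used.

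Groups came from the sample labels. Counts were summed per class, family and genus over the whole table. Taxa that reached 10 counts in 4 or more of 12 mice were tested with edgeR 4.0.16 (quasi-likelihood, TMM, Benjamini-Hochberg over all taxa of the rank), and a taxon passed at an adjusted p under 0.05. Shares of both classes and of Sutterella were compared by two-sided exact permutation tests in Python, adjusted over 7 comparisons per taxon. The procedures were tested on simulated data. Nothing in the labels says that mice were housed apart. Of 75 pairs of mice within groups, 0 had identical counts.

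The members, lists and comparisons were chosen with earlier results of these data known. Taxa were named by these rules: both classes, Sutterella, the 8 families and 12 genera with the highest mean share, every family or genus that passed, and the 6 ASVs with the most counts in each class. RF32, Rickettsiales, Alcaligenes, single Sutterella ASVs and Brevundimonas intermedia and diminuta are given in addition as members of the lists or of named taxa. The alternatives were TMM with singleton pairing, no TMM, DESeq2 1.42.0 with poscounts size factors, no filter, a minimum of 50 counts, the other tables, totals without Acinetobacter, all 30 mice in one model, log10 shares with 1 count added, mean ranks, a replicate block and leaving out each mouse. A refit of the same taxa without model mouse 2 was added after the data were seen.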

Additional observations from a re-analysis of the deposited data

Results flagged for a closer look

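The highest mouse of a group lay far from the other 5 in 20 of the 60 sets of 6 mice examined (12 taxa in 5 groups). The values below are the gap to the next mouse as a share of the range of the group in the sets where it passed Dixon's critical value, and chance gives about 1 in 20 such groups. Many shares hold zeros, which raises this value.

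Model mouse 2 was the highest in 10 of these sets. The value was 0.96 for Alphaproteobacteria, 0.715 for Betaproteobacteria and 0.969 for the summed environmental families. By family it was 0.954 for Brucellaceae, 0.976 for Caulobacteraceae, 0.7 for Comamonadaceae, 1.0 for Xanthobacteraceae, 0.908 for Rhizobiaceae, 0.942 for Sphingomonadaceae and 0.687 for Oxalobacteraceae.

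For Sutterella the highest mouse stood apart in the model group (mouse 3, 1.0), with salidroside (mouse 4, 0.805) and with hydroxytyrosol (mouse 3, 0.695). Salidroside mouse 4 also stood apart for Alphaproteobacteria (0.739) and Sphingomonadaceae (0.677). Tyrosol mouse 1 did so for Alphaproteobacteria (0.638), Xanthobacteraceae (1.0) and Sphingomonadaceae (1.0). The remaining values were 0.89 for Alcaligenaceae in model mouse 1 and 1.0 for Sphingomonadaceae in control mouse 5.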

How the results depend on the processing

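Of 482 values of 59 results recomputed with all mice, 408 kept their direction and their side of the threshold (counts: stayed within 1.5 times). The causes of the changes below were not tested. Numbers of member genera and families called are given below without the share over all taxa in the same fit. Fits without the filter also test other numbers of taxa. These counts describe how a call moved with the setting, and nothing about the members is read from them.

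For model against control, the Sutterella call in edgeR was lost without the filter on low counts (-5.20, adjusted p = 0.0747) and passed in the other 9 alternatives with all mice. Those with a count minimum admit the genus through control mice only, so they are no separate support. The alphaproteobacterial call was lost without TMM (4.44) and without the filter (3.50). The alphaproteobacterial share passed with totals without Acinetobacter and with model mouse 2 included (3.48 percentage points, unadjusted exact p = 0.0043). Member genera called were 2 with singleton pairing or all 30 mice and 5 without the filter, and member families called were 1 without TMM or with the rarefied table and 0 with DESeq2 or a minimum of 50 counts. For Brucellaceae and Sphingomonadaceae the values were 4.34 and 4.70 without TMM and 3.99 and 4.84 without the filter, none of which passed.

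For salidroside against model, the alphaproteobacterial call was lost with singleton pairing (-3.56) and without the filter (-3.0). With totals without Acinetobacter and model mouse 2 included, its share passed unadjusted (-3.44 percentage points) and the Sutterella difference reversed (-0.00255). Genera called were 5 without the filter and 1 with all 30 mice, and families called 1 with DESeq2, a minimum of 50 counts or the rarefied table. For tyrosol against model, genera called were 3 without the filter and 1 with all 30 mice. Families called were 2 without the filter or with a minimum of 50 counts, 0 with the rarefied table and 3 with all 30 mice. Betaproteobacteria, which did not pass at first (-2.03, adjusted p = 0.150 in edgeR), passed with DESeq2 (-2.56), without the filter (-2.53), with the unfiltered table (-2.23) and with all 30 mice (-2.56). With totals without Acinetobacter the Sutterella (0.0395) and betaproteobacterial (-0.602) shares no longer passed. For hydroxytyrosol against model, 4 genera and 4 families were called without the filter. Alphaproteobacteria no longer passed without TMM (-3.34), with the unfiltered table (-3.50) or without Acinetobacter (-3.14). Betaproteobacteria, which had not passed (-1.86, adjusted p = 0.122 in edgeR), passed with DESeq2 (-1.52), a minimum of 50 counts (-2.87) and the rarefied table (-2.77), and its share passed without Acinetobacter (-0.715), where the Sutterella share did not (0.00533).

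Between compounds, Alphaproteobacteria of salidroside against tyrosol reversed without Acinetobacter (-0.30 in edgeR, -0.0723 as a share), as log10 shares (-0.0912) and as mean ranks (-1). For hydroxytyrosol against tyrosol the shares reversed without Acinetobacter (-0.0108 for Alphaproteobacteria, -0.113 for Betaproteobacteria). Without the filter 1 genus was called for salidroside against hydroxytyrosol.

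In the labels, mice of different groups share only a number, taken here from the sample titles. In some groups the deposited counts carry other numbers. Deviations of same-numbered mice correlated between -0.453 and 0.448. The mean correlation ran from -0.123 for hydroxytyrosol against model to 0.114 for salidroside against hydroxytyrosol, which does not decide whether the mice were paired. With the replicate block, families called were 1 for model against control and 0 for each compound against model. The block gave 3.18, -2.82, -1.5 and -0.64 for Alphaproteobacteria in the 4 comparisons with model mice, none past the threshold. Paired exact tests gave p = 0.0625 for the Sutterella shares (-0.0970, 0.0139 and 0.0121) and for the betaproteobacterial share with tyrosol (-0.207). With the block, Alphaproteobacteria of salidroside against tyrosol (-0.0152) and Sutterella of hydroxytyrosol against tyrosol (0.0626) reversed. Sutterella of model against control passed with the block (-7.02, adjusted p = 0.0354 in edgeR).

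Leaving out each mouse in turn, member genera called ranged from 0 to 2 for model against control, and from 0 to 1 for tyrosol and hydroxytyrosol against model. Member families called ranged from 0 to 4, 0 to 3, 0 to 3 and 0 to 2 in the comparisons with model mice in the order above. For Alphaproteobacteria in edgeR the ranges were 1.2 to 4.94, -4.73 to -1.43, -5.23 to -1.06 and -4.80 to -0.0372, with calls lost without model mouse 2 and also without control mice 3 and 4 and model mouse 1, tyrosol mice 3 and 4, and hydroxytyrosol mice 1 to 5. Their shares ranged from 0.103 to 1.98, -1.97 to -0.0885 and -1.97 to -0.0910 in the first 3 comparisons. Betaproteobacteria ranged from -3.24 to -1.21 with tyrosol and -3.18 to -0.70 with hydroxytyrosol, and their shares from -0.245 to -0.106 and -0.207 to -0.0684. Sutterella ranged from -9.19 to -4.74 for model against control in edgeR. Its shares ranged from -0.000406 to 0.00464 with salidroside, 0.00886 to 0.0169 with tyrosol and 0.00568 to 0.0147 with hydroxytyrosol, and the last pair of results was lost without 7 and 8 of the 12 mice in turn. Between compounds, Alphaproteobacteria of salidroside against tyrosol ranged from -0.40 to 0.63 in edgeR and -0.0415 to 0.0297 as a share. Sutterella of hydroxytyrosol against tyrosol ranged from -0.92 to 0.22 in edgeR and -0.00822 to 0.00320 as a share, and the betaproteobacterial share of salidroside against hydroxytyrosol from -0.0182 to 0.0631.

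Leaving out the family mitochondria could not be run, since no ASV carried that name. At these depths a count of 0 allows up to 3 counts.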
